A study of Homo sapiens with 25 samples.

Results

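The comparison set the 4 libraries of hiF-T cells with high accumulation of a dye against the 4 libraries with low accumulation, the outer 2 of 4 gates of a sort, and it covered 8 of the 25 libraries of the series. hiF-T is a human fibroblast-like line derived from BJ skin fibroblasts, with inducible expression of hTERT, the catalytic subunit of telomerase. Both groups carried the genotype label WT and the treatment label none, and each held replicates 1 to 4, so that every high dye library had a low dye library with the same number. The other libraries were ungated cells, the inner gates (midlow and midhigh dye) and a small set with inhibitors of DOT1L or LSD1, and of these only the 8 inner gate libraries were used here for a second comparison. The series' design text describes a sort by proliferation status, but the labels do not say which level of dye goes with slow division. All libraries come from 1 line, and although the titles call the replicates biological, nothing says whether they were separate cultures or sorts. The p-values therefore measure only the spread of the differences between same-numbered libraries of these samples.

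Long non-coding RNAs (lncRNAs) are transcripts that are spliced and often polyadenylated like mRNAs but encode no protein, and many act in the nucleus or are by-products of transcription next to a coding gene. Several are direct targets of p53, the transcription factor that halts the cell cycle after stress, while E2F factors drive genes of DNA replication and repair in dividing cells. Genes at a few CPM (counts scaled to library size) are often receptors, channels or signalling proteins, for which few reads decide each value.

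The 8 libraries held 16005953 to 18914812 gene counts each. Genes with at least 1 count numbered 21991 to 26481 in high dye, with the highest number in replicate 3, and 22480 to 23040 in low dye. TERT, labelled as inducible, stood at 1636, 772, 2049 and 827 CPM in high dye replicates 1 to 4 and at 1633, 583, 934 and 404 CPM in low dye, where the groups overlapped and the log2 fold change was 0.64 ± 0.16 (SE, adjusted p = 0.019). This call was lost with DESeq2, without the block, without replicate 3 and without replicate 4. Of 10 fibroblast markers 9 were measured, 7 of them were higher and 1 (VIM) lower in high dye, and their sum ran from 21683 to 29945 CPM in high and from 17626 to 19153 CPM in low dye. THY1, a common fibroblast surface marker, stayed under 1 CPM. Marker sums of other cell types were 0.542 to 1.39 against 0.153 to 0.680 CPM for immune cells, 0.118 to 2.07 against 0 to 0.972 CPM for Schwann or neural cells, 1.32 to 5.19 against 0.927 to 3.82 CPM for endothelial cells, and 2.11 to 6.91 against 1.79 to 2.83 CPM for melanocytes. The endothelial marker KDR (0.83 ± 0.27, adjusted p = 0.045) and the melanocyte marker MITF (1.41 ± 0.21, adjusted p = 0.0024) were higher in high dye, as log2 fold changes. The epithelial sum of 133 to 337 against 128 to 312 CPM came from KRT8 and KRT18, neither of which was called. The smooth muscle or pericyte sum was 28.9 to 162 in high against 11.03 to 56.3 CPM in low dye, and RGS5 and ACTA2, also expressed in activated fibroblasts, were higher. The part of these marker levels in the results below was not tested. In bulk samples such as these, fewer cells of a type and less RNA per cell cannot be told apart.

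With the replicate number as a block, edgeR's quasi-likelihood test called 4035 of 13817 genes (29.2%) at an adjusted p under 0.05, of which 2207 (16.0%) were higher and 1828 (13.2%) lower in high dye. The number fell to 1796 without replicate 1 and to 2162 without replicate 3, and 1497 genes were called without the block. The classes of genes differed in how often they were called. Of 11795 protein-coding genes 3846 (32.6%) were called, of 1167 lncRNAs 126 (10.8%), of 699 pseudogenes 51 (7.30%) and of 43 small RNAs 5 (11.6%). The lncRNAs split evenly, at 63 higher and 63 lower. At a mean of 10 CPM or more the gap closed for lncRNAs. There 39 of 102 lncRNAs were called (38.2%, 16 higher and 23 lower) beside 3086 of 8759 protein-coding genes (35.2%). Of 58 pseudogenes at that level 10 were called (17.2%, 1 higher and 9 lower), and of 5 small RNAs 1 was called. At 1 to under 10 CPM 71 of 657 lncRNAs were called (10.8%, 39 higher and 32 lower) against 684 of 2589 protein-coding genes (26.4%). At those levels the coding genes leaned to one side, with 564 higher and 120 lower. Over all classes 897 of 4886 genes under 10 CPM were called, 701 higher and 196 lower. The 3138 called genes at 10 CPM or more split into 1506 higher and 1632 lower. The filter keeps a gene that reaches its count in 1 gate alone, in either direction, so genes near zero in the other gate are among those tested. How far this shaped the lean was not tested. Under 10 CPM the calls were 367 higher and 42 lower without replicate 1, and 363 higher and 69 lower without replicate 3.

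**Figure D1:**
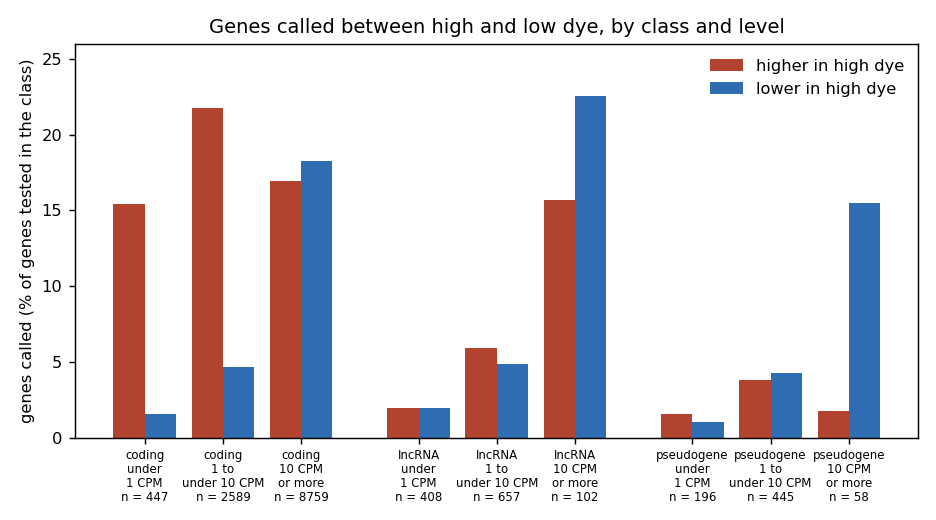
Percent of tested genes called higher (red) or lower (blue) in high dye, for 3 gene classes at 3 levels of mean CPM over the 8 libraries, with the number tested under each pair of bars. Protein-coding genes at 1 to under 10 CPM were called higher in 21.8% and lower in 4.64%, while lncRNAs at that level were called in 5.94% and 4.87%.

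The lncRNAs that were higher included PURPL, LNCTAM34A, LINC00973 and GASK1B-AS1. PURPL (p53 upregulated regulator of p53 levels, ENSG00000250337, chromosome 5 from 27472292 to 27496401, GRCh38) stood at 25.6, 20.5, 27.3 and 13.7 CPM in high dye replicates 1 to 4 and at 7.77, 7.73, 5.28 and 7.04 CPM in low dye. All 4 high dye libraries lay above all 4 low dye libraries, as was so for 9.82% of the genes tested (19.5% in either direction). The means were 21.8 ± 6.10 CPM at high and 6.95 ± 1.17 CPM at low accumulation (SD, n = 4), with a log2 fold change of 1.61 ± 0.19 and an adjusted p of 0.00098. LNCTAM34A, transcribed away from the gene of the p53-induced miR-34a (ENSG00000234546, chromosome 1 from 9182004 to 9196284, GRCh38), stood at 2.24, 0.813, 1.57 and 1.44 CPM against 0.689, 0.358, 0.579 and 0.865 CPM, so that high dye replicate 2 lay within the low dye range. Its log2 fold change was 1.26 ± 0.29 (adjusted p = 0.011), and the call was lost without the block, without replicate 1 and without replicate 3. MIR34AHG, the host gene of miR-34a on the other strand, was not called (19.9 ± 7.24 CPM at high and 24.8 ± 13.99 CPM at low accumulation (SD, n = 4), log2 fold change -0.23 ± 0.14). Exons of the pair overlap, and the library kit does not mark strand, so reads in the shared stretch cannot be told apart.

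Promoter windows from RefSeq (GRCh38.p14, 250 bases before to 50 after a start site) were searched for the p53 decamer, the 10-base unit that p53 binds as a pair. A pair of decamers with no base between them was found in the windows of 3 tested genes, out of 10235 tested genes with a window (6 of 35116 windows in the whole table, 0.0171%). These 3 genes were PURPL, LNCTAM34A and the protein-coding PTCHD4, and all 3 were higher in high dye. They are shown because the match and the measured direction coincide in each, with the decamers in capitals. The PTCHD4 window belongs to a RefSeq start upstream of the GENCODE gene, and its other windows held no decamer. The windows lie at chr5:27472042-27472341 on the plus strand (PURPL), chr1:9181954-9182253 on the plus strand (LNCTAM34A) and chr6:48111148-48111447 on the minus strand (PTCHD4).
PURPL: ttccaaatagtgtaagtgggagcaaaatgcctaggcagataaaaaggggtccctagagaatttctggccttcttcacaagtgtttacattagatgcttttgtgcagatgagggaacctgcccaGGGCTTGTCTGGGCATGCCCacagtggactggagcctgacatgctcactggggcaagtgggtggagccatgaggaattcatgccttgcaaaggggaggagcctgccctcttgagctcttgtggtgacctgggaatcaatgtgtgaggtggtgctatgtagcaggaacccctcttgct
LNCTAM34A: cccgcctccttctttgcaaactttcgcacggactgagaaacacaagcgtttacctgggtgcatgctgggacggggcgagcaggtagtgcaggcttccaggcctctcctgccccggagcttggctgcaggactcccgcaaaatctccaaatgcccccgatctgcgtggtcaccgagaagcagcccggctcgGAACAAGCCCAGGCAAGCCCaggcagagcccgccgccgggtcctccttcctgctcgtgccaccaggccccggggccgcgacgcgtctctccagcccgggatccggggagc
PTCHD4: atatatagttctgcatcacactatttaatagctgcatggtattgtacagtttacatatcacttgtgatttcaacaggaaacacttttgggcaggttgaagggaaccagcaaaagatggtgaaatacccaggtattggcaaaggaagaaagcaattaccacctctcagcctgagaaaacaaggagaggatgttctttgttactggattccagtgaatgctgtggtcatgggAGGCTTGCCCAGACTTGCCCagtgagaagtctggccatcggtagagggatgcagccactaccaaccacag

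The first decamer began 127 bases before the start site in PURPL, 60 in LNCTAM34A and 20 in PTCHD4. PTCHD4, which encodes a patched domain protein, stood at 19.3, 12.2, 12.4 and 7.43 CPM in high and 4.39, 3.02, 4.44 and 3.03 CPM in low dye, without overlap, with a log2 fold change of 1.75 ± 0.16 (adjusted p = 0.00045). Single decamers were common. They were present in 5.76% of windows of tested genes, 7.02% of those of genes called higher, 9.49% of those at least 2-fold higher and 4.95% of those called lower. A match is a description of these letters and not a bound site.

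LINC00973 (ENSG00000240476, chromosome 3 from 98981058 to 98983096, GRCh38) stood at 9.67, 5.25, 12.01 and 5.87 CPM in high dye and 1.75, 1.28, 1.74 and 1.48 CPM in low dye. The groups did not overlap, and all 4 low dye values lay close together. Its log2 fold change was 2.34 ± 0.18 (adjusted p = 0.00025), and between midhigh and midlow dye it was 1.24 ± 0.22. Of the 34 lncRNAs called higher that had a window, 10 (29.4%) held the AP-1 motif TGANTCA on either strand, beside 48 of 510 tested lncRNAs (9.41%), 3 of 27 called lower (11.1%) and 9.37% of all genes in the table. Over genes of all classes it was in 9.22% of those called higher and 7.04% of those tested. In these 34 lncRNAs the TATA box (20.6% against 11.8% of tested lncRNAs) and the p53 decamer (14.7% against 8.24%) were also more frequent. Others, such as E2F (2.94% against 8.43%), were less frequent. No difference in motif shares was tested. Windows of the lncRNAs called higher were also poor in CpG, with a median of 9 CpG per window against 22 for tested lncRNAs. The window of LINC00973 nearest its GENCODE start (chr3:98980805-98981104, plus strand) is shown as an example, with the AP-1 match in capitals.
LINC00973: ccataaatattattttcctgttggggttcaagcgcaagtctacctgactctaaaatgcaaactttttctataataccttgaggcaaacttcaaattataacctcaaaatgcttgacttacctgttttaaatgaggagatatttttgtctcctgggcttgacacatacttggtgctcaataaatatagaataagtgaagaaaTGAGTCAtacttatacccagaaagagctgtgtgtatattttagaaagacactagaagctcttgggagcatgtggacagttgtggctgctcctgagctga

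GASK1B-AS1 had the largest log2 fold change of the named lncRNAs (3.49 ± 0.40, adjusted p = 0.00090) at 3.24, 2.28, 2.96 and 0.806 CPM against 0.251, 0.102, 0.193 and 0.247 CPM, the low dye values resting on 13 counts in all. Its exons overlap those of GASK1B, a Golgi protein gene that was itself higher (log2 fold change 2.18 ± 0.26), and those of TMEM144 on its own strand, also higher (0.64 ± 0.16), so reads of the 3 genes in shared stretches cannot be told apart. The others named at this end were LINC00968 (2.72 ± 0.34), MSC-AS1 (2.29 ± 0.26), AC003092.1 (1.73 ± 0.24), GJD3-AS1 (1.65 ± 0.35), AL158206.1 (1.37 ± 0.39) and LINC01094 (1.11 ± 0.31), as log2 fold changes with SE. LINC00968, MSC-AS1 and GJD3-AS1 share exonic stretches with genes on the other strand. MSC-AS1 varied widely between replicates of a gate, at 10.2, 2.49, 2.84 and 0.288 CPM in high and 2.51, 0.512, 0.322 and 0.0618 CPM in low dye, with overlap between the gates and a rise in each pair, and its call was lost without the block.

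**Figure D2:**
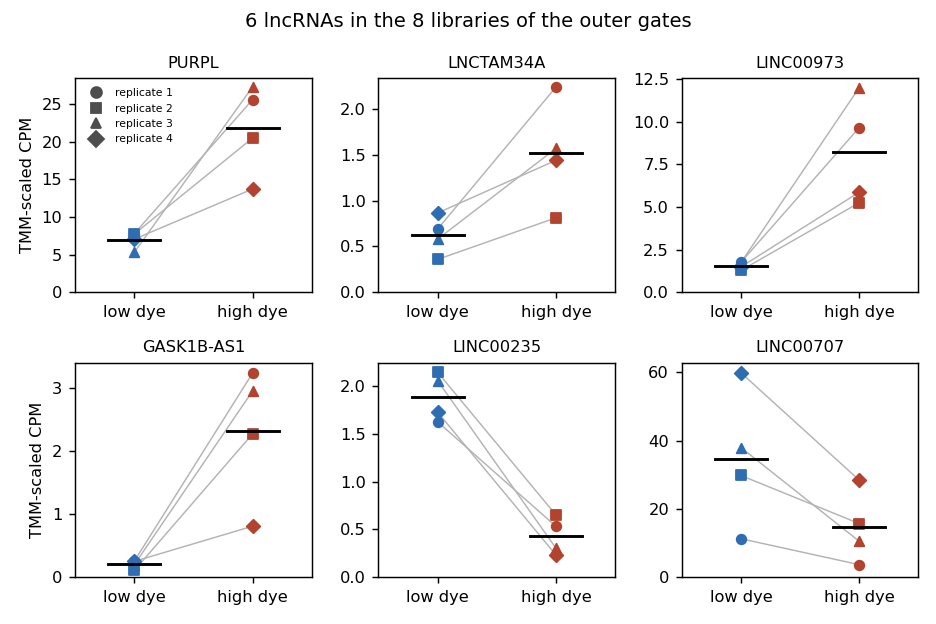
TMM-scaled CPM of 6 lncRNAs in low dye (blue) and high dye (red), with a marker shape for each replicate number, a grey line joining libraries of the same number and a black bar at each group mean. PURPL, LNCTAM34A, LINC00973 and GASK1B-AS1 rose in every pair, and LINC00235 and LINC00707 fell in every pair, as the rule for named genes required.

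The lncRNAs that were lower were led by LINC00235 (ENSG00000277142, chromosome 16 from 525155 to 527407, GRCh38). It stood at 0.530, 0.650, 0.302 and 0.230 CPM in high dye and 1.63, 2.15, 2.06 and 1.73 CPM in low dye, and all high dye libraries lay below all low dye libraries, as for 9.65% of genes tested. The log2 fold change was -2.13 ± 0.32 (adjusted p = 0.0023). LINC00707 (ENSG00000238266, chromosome 10 from 6779549 to 6879450, GRCh38) stood at 3.60, 15.7, 10.4 and 28.4 CPM in high dye replicates 1 to 4 and at 11.2, 29.8, 37.98 and 59.9 CPM in low dye. Its groups overlapped widely, yet it was lower in each pair, with a log2 fold change of -1.33 ± 0.15 (adjusted p = 0.00089), a call that was lost without the block. SOX21-AS1 (-1.01 ± 0.16) moved beside the neighbouring SOX21 (-0.88 ± 0.21), a transcription factor gene. The other named lncRNAs on this side were AC027307.3, SLC16A4-AS1, INSIG1-DT, TMED2-DT, LINC02916, AC093484.4 and AC007743.1, with log2 fold changes from -1.23 to -0.99. The coding neighbours INSIG1 (0.11 ± 0.06) and TMED2 (-0.09 ± 0.05) were not called. SLC16A4, opposite SLC16A4-AS1, was higher (1.11 ± 0.23) where the antisense RNA was lower, and CCDC85A, on the strand opposite AC007743.1, was lower (-0.82 ± 0.15). Exons of AC007743.1 overlap those of CCDC85A, and exons of TMED2-DT overlap those of TMED2, so reads in shared stretches cannot be told apart. Of the 20 named lncRNAs 12 lost their call without the block and 4 with DESeq2. Without replicate 1 the number was 8 and without replicate 3 it was 7. Lost in both of these leave-outs were 6 (AL158206.1, LNCTAM34A, LINC01094, TMED2-DT, LINC02916 and AC093484.4). Without replicate 2 the number was 4, and without replicate 4 it was 3.

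The lncRNAs were also counted by position relative to coding genes, with no test of a difference between positions. Of all 1167 lncRNAs 5.40% were higher and 5.40% lower. Of 174 lncRNAs inside a coding gene on the same strand 17 were lower and 5 higher, whereas of 561 on the opposite strand 18 were lower and 21 higher, and of 432 outside coding genes 28 were lower and 37 higher. Among 17 called pairs of a lncRNA and its same-strand coding gene, the coding gene was called the same way in 9 and the other way in 2. Among 41 such pairs on opposite strands it was called the same way in 14 and the other way in 4. Of all coding genes 32.6% were called in either direction. By kind of name, 20 of 334 antisense-named lncRNAs were higher and 13 lower, 3 of 118 divergent transcripts were higher and 6 lower, 13 of 122 LINC-numbered lncRNAs were higher and 9 lower, and of 13 intronic or overlapping lncRNAs 1 was higher and 2 were lower (medians -0.01, -0.01, 0.09 and -0.36). Reads of a host pre-mRNA and of a lncRNA inside it cannot be told apart.

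Of 8 measured gene identifiers of lncRNAs known to respond to p53, 5 were higher (62.5%) and 0 lower, with a median log2 fold change of 0.55 beside 0.01 over all genes. Over all genes 16.0% were higher and 13.2% lower, and over all lncRNAs 5.40% were higher. The 5 were PURPL, NEAT1, PVT1 and LINC-PINT, which was counted under both of its gene identifiers. NEAT1, the scaffold of nuclear paraspeckles, stood at 349, 229.5, 406 and 203 CPM in high and 165, 159, 118 and 122 CPM in low dye, without overlap, and changed by 1.03 ± 0.17 (adjusted p = 0.0034). MEG3 (0.24 ± 0.12), MIR34AHG and TP53TG1 (0.58 ± 0.45) were not called. Of 8 abundant lncRNAs 4 were higher (NEAT1, MALAT1, FTX and NORAD) and OIP5-AS1 was lower (-0.31 ± 0.06). MALAT1, a nuclear speckle RNA, stood at 1076, 696, 1546 and 1352 CPM in high dye against 715, 716, 771 and 712 CPM in low dye, so that replicate 2 of high dye lay below all low dye libraries, and the log2 fold change was 0.62 ± 0.15 (adjusted p = 0.014). NORAD, which binds Pumilio proteins, changed by 0.35 ± 0.07. None of the 10 measured lncRNAs of the HOX clusters was called by edgeR, and DESeq2 called 0, although 2 had an unadjusted p under 0.05. Their log2 fold changes ran from -0.58 (HOXA10-AS) to 0.80 (HOXA-AS3).

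Among 27 microRNA host genes 4 were higher and 3 lower (25.9% called, median 0.02), a share near the 29.2% of all genes. Poly(A) libraries do not hold mature microRNAs, so these values are those of the host transcripts alone. MIR22HG was at 70.4 ± 17.6 CPM at high and 50.8 ± 16.04 CPM at low accumulation (SD, n = 4) and changed by 0.49 ± 0.09 (adjusted p = 0.0043). MIR181A2HG (1.03 ± 0.25), MIR99AHG (1.27 ± 0.37, higher in 3 of 4 pairs) and FTX were the others that were higher. MIR155HG (-0.51 ± 0.16), MIR137HG (-0.32 ± 0.08) and MIR222HG (-0.29 ± 0.08) were lower. MIR25, a hairpin in an intron of the replication licensing gene MCM7, was counted at 0.177, 0.325, 0.241 and 0.691 CPM in high and 0.877, 0.767, 1.09 and 0.989 CPM in low dye, without overlap, while MCM7 itself fell from a mean of 324 to 168 CPM (log2 fold change -1.03 ± 0.18). Reads of this hairpin and of unspliced MCM7 RNA cannot be told apart. Mature sequences from RefSeq (GRCh38.p14) are shown for hosts that changed, with the seed (bases 2 to 8) in capitals, to set out which of them share a seed. The pair from MIR222HG shares GCUACAU and the pair from MIR181A2HG shares ACAUUCA, while in MCM7 miR-93 and miR-106b share AAAGUGC and miR-25 carries AUUGCAC.
hsa-miR-221-3p: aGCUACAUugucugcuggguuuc
hsa-miR-222-3p: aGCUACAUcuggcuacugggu
hsa-miR-155-5p: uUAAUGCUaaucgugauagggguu
hsa-miR-181a-5p: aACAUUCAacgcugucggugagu
hsa-miR-181b-5p: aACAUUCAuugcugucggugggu
hsa-miR-22-3p: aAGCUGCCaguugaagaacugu
hsa-miR-93-5p: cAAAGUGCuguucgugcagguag
hsa-miR-106b-5p: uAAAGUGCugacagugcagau
hsa-miR-25-3p: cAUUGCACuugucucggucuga

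Of 28 host genes of small nucleolar RNAs, which guide the modification of ribosomal RNA, 6 were lower and 2 higher (median -0.07), a share called of 28.6% beside 29.2% of all genes. SNHG1 (-0.62 ± 0.10), SNHG3 (-0.73 ± 0.09), SNHG12 (-0.53 ± 0.09), SNHG17 (-0.37 ± 0.07), DANCR (-0.36 ± 0.08) and the coding host TAF1D (-0.41 ± 0.05) were lower, and SNHG8 (0.49 ± 0.10) and SNHG14 (0.50 ± 0.09) were higher. SNHG3 stood at 53.3, 61.6, 47.02 and 68.1 CPM in high and 87.5, 98.7, 98.6 and 94.5 CPM in low dye, without overlap, and shares exons with RCC1, also lower (-0.64 ± 0.11). SNORA71B, inside SNHG17, was the small RNA with the largest decrease (-1.48 ± 0.36), on 24 counts in high and 66 in low dye. Its reads and those of unspliced SNHG17 RNA cannot be told apart. Pseudogenes named as higher were FER1L4 (2.04 ± 0.33), NMRAL2P (2.01 ± 0.23) and FTH1P16 (1.86 ± 0.27), and HMGB1P10 (-1.41 ± 0.40) was the pseudogene named as lower. FTH1P16 and HMGB1P10 are near copies of the ferritin heavy chain gene FTH1 (1.39 ± 0.13) and of HMGB1 (-0.70 ± 0.11), which moved the same way, so their values are uncertain. The call of MIR25 was lost with DESeq2, without the block, and when replicate 1, 2 or 3 was left out. That of SNORA71B was lost with DESeq2 and without replicate 1. HMGB1P10 lost its call without the block, without replicate 3 and without replicate 4, and NMRAL2P without the block.

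Coding genes at low levels gave large changes. At 1 to under 10 CPM the 10 named as higher were CSTA, PAPPA2, RRAD, NUPR1, UNC5B, INPP5D, DYSF, VWCE, NRCAM and KCTD4, with log2 fold changes from 4.77 to 3.25. PAPPA2, a metalloprotease that cleaves carriers of insulin-like growth factors, stood at 41.7, 16.5, 10.4 and 2.02 CPM in high dye replicates 1 to 4 and at 2.63, 0.665, 0.644 and 0.0618 CPM in low dye. Replicate 4 of high dye lay below replicate 1 of low dye, but the order of the replicates was alike in both gates. The log2 fold change was 4.19 ± 0.17 (adjusted p = 1.9e-05). UNC5B, a receptor for netrins, stood at 29.3, 8.18, 11.05 and 2.53 against 2.51, 0.460, 0.322 and 0.124 CPM with nearly the same order of replicates, and changed by 3.99 ± 0.23 (adjusted p = 7.0e-05). NUPR1, a stress-induced nuclear protein, stood at 3.71, 1.30, 5.86 and 1.21 against 0.376, 0, 0.129 and 0.185 CPM, the low dye values being 11 counts in all, and changed by 4.06 ± 0.46. CSTA, the protease inhibitor cystatin A, changed by 4.77 ± 0.40 on 5 counts in low dye. DYSF, a protein of membrane repair (3.47 ± 0.29), and NRCAM, a neuronal adhesion molecule (3.27 ± 0.23), rose without overlap. For RRAD, a small GTPase, 15 of the 17 low dye counts came from replicate 3. INPP5D, an inositol phosphatase best known from blood cells, rose by 3.96 ± 0.51 on 10 low dye counts, with 5 immune markers at a sum of 0.542 to 1.39 CPM in high and 0.153 to 0.680 CPM in low dye. Of these PTPRC stood at a mean of 0.572 against 0.203 CPM and CD14 at 0.261 against 0.117 CPM, CD3E and LYZ were at 0, and their part in the result was not tested.

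**Figure D3:**
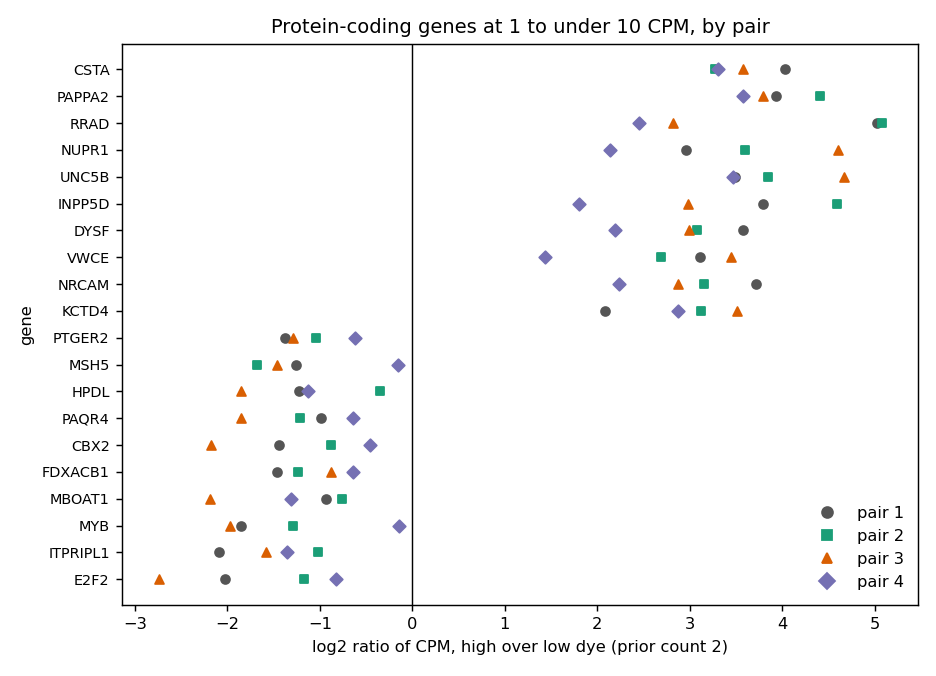
Log2 ratios of CPM (high over low dye, prior count 2) in each of the 4 same-numbered pairs for the 20 named protein-coding genes at a mean of 1 to under 10 CPM. All 80 ratios lay on the side of zero given by the fit, because the genes were chosen for 4 of 4 pairs in 1 direction. Pair 4 was often the nearest to zero.

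The 10 named as lower at this level included 3 regulators of growth and chromatin, namely E2F2, a transcription factor of the cell cycle, the proto-oncogene MYB, and CBX2, a Polycomb protein. E2F2 stood at 1.77, 3.47, 1.87 and 5.59 CPM in high dye and 7.58, 7.93, 13.2 and 10.01 CPM in low dye, without overlap. Its log2 fold change was -1.64 ± 0.28 (adjusted p = 0.0039). MYB changed by -1.28 ± 0.31 and CBX2 by -1.18 ± 0.23. PTGER2, a prostaglandin E2 receptor (-1.12 ± 0.25), MSH5, a meiotic recombination gene (-1.13 ± 0.28), and MBOAT1, an acyltransferase (-1.26 ± 0.24), fell too. ITPRIPL1, FDXACB1, PAQR4 and HPDL completed the group. Exons of MYB, MBOAT1, FDXACB1, PAQR4 and MSH5 overlap those of other genes, so reads in shared stretches cannot be told apart. The calls of MYB, MSH5 and HPDL were lost both without replicate 1 and without replicate 3, and those of FDXACB1 and PTGER2 without replicate 1. Without the block those of MYB, FDXACB1, MSH5 and PTGER2 were lost. MSH5 also lost its call without replicate 2, and HPDL without replicate 4.

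Under 1 CPM 102 of 1108 genes (9.21%) were called, 80 higher and 22 lower. FAM13C had 90 counts in high and 3 in low dye, a ratio of 29.2 per gene count total (exact 95% interval 9.66 to 144, counting error only). CLCA2 stood at 1.89, 1.35, 2.66 and 0.922 CPM in high and 0.251, 0, 0.258 and 0.185 CPM in low dye, without overlap, and rose by 3.30 ± 0.46 (adjusted p = 0.0019). HSD17B14, a steroid dehydrogenase (3.12 ± 0.41), PLA2R1, the phospholipase A2 receptor (2.85 ± 0.39), and ICAM5, an adhesion molecule (2.68 ± 0.49), were the others. KLB, the co-receptor beta-klotho of FGF hormones, was lower at 0.472, 0.325, 0.241 and 0.346 against 0.627, 0.767, 1.35 and 1.11 CPM (-1.43 ± 0.39, adjusted p = 0.023). AP001893.1 and AC021945.1 were lower as well, the latter inside DSCC1, a cohesion gene that fell with it (-0.93 ± 0.21). The call of KLB was lost with DESeq2, without replicate 3 and without replicate 4. Those of AP001893.1 and AC021945.1 were lost without replicate 1 and without replicate 3. AP001893.1 also lost its call without the block, and AC021945.1 with DESeq2 and without replicate 2.

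At 10 CPM or more the smallest p-values upwards belonged to TMEM132B, GPNMB, COL11A1, GABARAPL1 and FAM43A. TMEM132B, a membrane protein, stood at 46.7, 24.1, 16.7 and 7.31 CPM against 4.76, 3.33, 2.38 and 0.494 CPM and changed by 3.10 ± 0.15 (adjusted p = 3.6e-05). GABARAPL1, an autophagy protein of the ATG8 family, stood at 74.2, 36.9, 85.7 and 47.2 CPM against 20.7, 9.67, 26.7 and 19.96 CPM and changed by 1.67 ± 0.11. Neither overlapped between gates. Downwards they belonged to SYNE2, USP37, SAPCD2, MYO19 and TFAP4. SYNE2, the nuclear envelope linker nesprin-2, stood at 41.7, 69.7, 39.5 and 69.6 CPM in high and 89.7, 121, 111 and 134 CPM in low dye, without overlap, and changed by -1.08 ± 0.10 (adjusted p = 0.00051). USP37, a deubiquitinase (-0.92 ± 0.09), and MYO19, a mitochondrial myosin (-0.70 ± 0.08), fell by less.

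Lists of secreted factors and receptors are set beside 16.0% of all genes higher and 13.2% lower. Of 22 ligands of receptor tyrosine kinases 8 were higher and 1 lower (median log2 fold change 0.20). EREG, a ligand of the EGF receptor, stood at 148, 108, 104 and 69.00 CPM in high and 91.1, 58.2, 50.9 and 39.8 CPM in low dye, so that the groups overlapped although each pair rose, and changed by 0.86 ± 0.07 (adjusted p = 0.00026). VEGFA (0.89 ± 0.17), FGF2 (0.81 ± 0.10), NRG1 (0.72 ± 0.15) and BDNF (0.46 ± 0.06) were higher, and FGF5 was lower (-0.39 ± 0.11). Of 14 members of the TNF families 7 were higher and 2 lower (median 0.33), among them the death receptors TNFRSF10A (0.81 ± 0.18) and TNFRSF10B (0.53 ± 0.09), the decoy receptor TNFRSF10D (0.86 ± 0.06) and the ligand TNFSF9 (1.56 ± 0.41). Of 22 ADAM and ADAMTS proteases, which cut membrane and matrix proteins, 9 were higher and 1 lower (median 0.39), and of 7 complement genes 4 were higher and 1 lower (median 0.26). Of 10 prostaglandin genes 2 were higher and 3 lower, where the prostacyclin receptor PTGIR rose (1.49 ± 0.17) while the prostaglandin E2 receptors PTGER2 and PTGER4 (-0.68 ± 0.09) fell. Of 15 Notch pathway genes 3 were higher, among them the receptor NOTCH3 (0.99 ± 0.29), and 1 was lower, a share called of 26.7% beside 29.2% of all genes. Of 8 Hedgehog genes SMO was higher (1.11 ± 0.21) and HHIP, GLI2 and GLI3 were lower (median -0.21).

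Among membrane proteins, 8 of 21 potassium channels were higher and 1 lower, with a median log2 fold change of -0.01. Of 11 calcium and sodium channels 4 were higher. Over all genes 16.0% were higher and 13.2% lower. SCN2A, a neuronal sodium channel subunit, stood at 16.7, 13.7, 13.5 and 11.5 CPM in high and 5.83, 4.60, 3.80 and 4.39 CPM in low dye, without overlap, and changed by 1.57 ± 0.12 (adjusted p = 0.00020). Of 28 ABC transporters 10 were higher and 4 lower (median 0.12). ABCA1, the cholesterol exporter, stood at 13.5, 9.64, 21.9 and 3.92 CPM against 1.00, 2.40, 1.03 and 0.989 CPM without overlap and changed by 3.02 ± 0.36 (adjusted p = 0.0010), and ABCC3, an organic anion exporter, changed by 2.02 ± 0.14. ABCG2 (-0.24 ± 0.18) and ABCC1 (0.05 ± 0.05), which export many dyes, were not called. The part of any of these transporters in the level of dye was not tested. Of 35 adhesion and orphan G protein-coupled receptors 8 were higher and 4 lower, of 33 cadherins and protocadherins 7 and 3, of 12 Eph receptors and ephrins 2 and 1, and of 26 sialyl and GalNAc transferases 7 and 1. The shares called were 34.3%, 30.3%, 25% and 30.8%, near the 29.2% of all genes. EPHA4 (1.20 ± 0.13) rose and EPHB2 (-0.50 ± 0.06) fell.

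Enzymes and nuclear factors moved both ways, and their counts are set beside 16.0% of all genes higher and 13.2% lower. Of 17 aldehyde dehydrogenases and aldo-keto reductases 7 were higher and 3 lower (median 0.16). AKR1C1, a steroid and aldehyde reductase, stood at 41.7, 8.72, 15.2 and 2.76 CPM in high dye replicates 1 to 4 and 4.83, 0.870, 0.966 and 0.680 CPM in low dye, with overlap between replicate 4 of high and replicate 1 of low dye, and changed by 3.22 ± 0.21 (adjusted p = 0.00013). Of 28 nuclear receptors 10 were higher and 4 lower (median 0.14), with NR4A3 (1.98 ± 0.40), RARB (1.44 ± 0.20) and VDR (0.90 ± 0.20) upwards and PPARD (-0.46 ± 0.08) downwards. Of 16 clock genes 4 were higher and 4 lower, BHLHE40 (0.92 ± 0.11) and PER1 (0.39 ± 0.11) among the first and PER3 (-0.63 ± 0.11) and CRY1 (-0.33 ± 0.06) among the second. The 418 ZNF zinc finger genes were called in 17.2%, 36 higher and 36 lower, beside 29.2% of all genes called.

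Fanconi and homologous recombination genes, which repair DNA crosslinks and double-strand breaks, moved mostly one way. Of 23 measured genes 20 were lower and 0 higher, with a median log2 fold change of -0.73 beside 0.01 over all genes. Over all genes 13.2% were lower and 16.0% higher. The list is not complete, since some genes of the pathway, called and not called, are not reported here, so the count is not the share of the whole pathway. BLM, the helicase of Bloom syndrome, stood at 12.5, 21.1, 10.3 and 21.4 CPM in high dye and 28.9, 31.6, 33.8 and 31.7 CPM in low dye, without overlap. The low dye libraries lay close together, and in high dye replicates 1 and 3 were lowest. The log2 fold change was -0.99 ± 0.17 (adjusted p = 0.0042). XRCC2 (-1.06 ± 0.19) and FANCA (-0.95 ± 0.12) fell by similar amounts, and RAD54B, FANCF and MUS81 were not called. Of 20 of these genes with a window 12 (60%) held the E2F motif TTCCCGC on either strand, beside 12.7% of all tested genes with a window, 20.9% of those called lower and 8.54% of those called higher. The window of BLM (chr15:90717096-90717395, plus strand) is shown because it held 2 matches, in capitals, both read on the other strand.
BLM: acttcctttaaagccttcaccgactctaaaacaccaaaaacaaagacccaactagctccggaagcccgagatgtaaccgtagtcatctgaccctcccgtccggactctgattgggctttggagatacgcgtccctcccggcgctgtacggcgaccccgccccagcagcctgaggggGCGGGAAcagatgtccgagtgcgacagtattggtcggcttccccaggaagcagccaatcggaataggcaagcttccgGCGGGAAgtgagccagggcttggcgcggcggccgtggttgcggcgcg

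**Figure D4:**
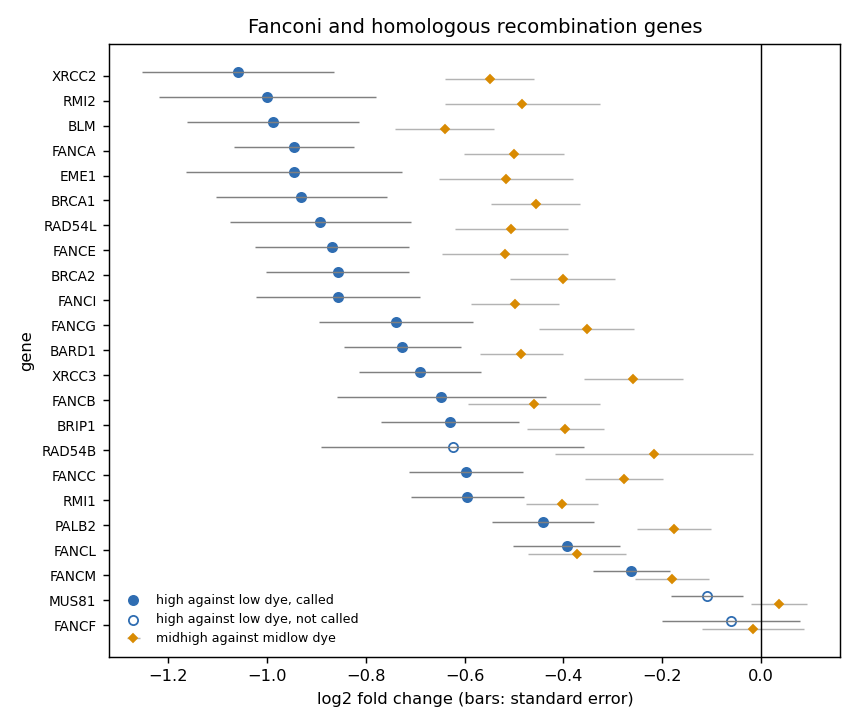
Log2 fold changes with standard errors of 23 Fanconi and homologous recombination genes between high and low dye (blue circles, open where not called) and between midhigh and midlow dye (orange diamonds). All 20 called genes lay below zero in both comparisons.

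Of 14 genes of the nuclear lamina and envelope 7 were lower and 1 higher (median -0.26), where of all genes 13.2% were lower and 16.0% higher. LMNB1, lamin B1, stood at 65.7, 129, 46.00 and 123 CPM in high and 161, 168, 152 and 167 CPM in low dye, without overlap, and changed by -0.95 ± 0.20 (adjusted p = 0.0082). LMNB2 (-0.77 ± 0.13), TMPO (-0.89 ± 0.16) and LBR (-0.55 ± 0.09) fell with it, SYNE1 rose (0.36 ± 0.06), and LMNA, the A-type lamin gene, was not called (-0.17 ± 0.07). Of 21 tubulins and proteins of the gamma-tubulin complex 9 were lower, among them TUBA1B (-0.59 ± 0.10) and TUBG1 (-0.42 ± 0.06), and 4 were higher, among them TUBA4A (0.89 ± 0.15), with a median of -0.30.

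The 4 same-numbered pairs differed in how far the gates stood apart. Of the 4035 called genes 3903 (96.7%) had the fitted direction in 4 of 4 pairs and 132 in 3 of 4. Over all tested genes 6545 (47.4%) had 1 direction in 4 of 4. The calls rest on these same pair differences, so the higher share among called genes follows largely from the test and is no support for it. Of the 132 exceptions 68 had pair 4 as the odd one, 56 pair 2, 8 pair 1 and 0 pair 3. Pair 3 gave the largest ratio in 58.0% of the called genes, pair 1 in 22.5%, pair 2 in 10.9% and pair 4 in 8.58%. For genes at 10 CPM or more the SD of the log2 ratio over genes was 0.42, 0.31, 0.49 and 0.28 in pairs 1 to 4. Across these 8931 genes the ratios of 2 pairs correlated at Pearson r from 0.639 (pairs 2 and 4) to 0.903 (pairs 1 and 3), and across the 1108 genes under 1 CPM from 0.266 to 0.490. Genes are not independent replicates, and no p is given.

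**Figure D5:**
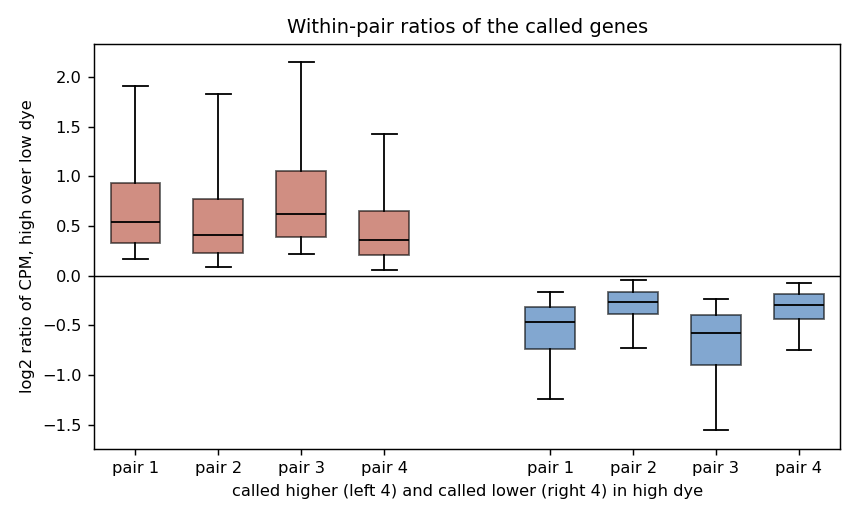
Log2 ratios of CPM (high over low dye) in each pair for the 2207 genes called higher (red) and the 1828 called lower (blue), with the median, the quartiles as boxes and the 5th to 95th percentiles as whiskers. The medians for pairs 1 to 4 were 0.54, 0.41, 0.62 and 0.36 in genes called higher and -0.46, -0.26, -0.57 and -0.29 in genes called lower.

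Among called genes at 10 CPM or more, the 5 largest changes that failed in 1 pair were PSAT1, NIBAN1, SEL1L3, MEOX2 and ESCO2. PSAT1, an enzyme of serine synthesis, stood at 294, 113, 163 and 66.8 CPM in high dye and 95.1, 55.4, 76.3 and 70.8 CPM in low dye, so that pair 4 ran slightly the other way. Its log2 fold change was 0.93 ± 0.22 (adjusted p = 0.012). ESCO2, which acetylates cohesin, stood at 13.1, 23.7, 11.1 and 23.8 CPM against 28.6, 21.2, 30.1 and 32.9 CPM, and pair 2 ran the other way (-0.69 ± 0.22, adjusted p = 0.041). All 5 lost their call without the block, and all 5 without replicate 1. In the opposite case, 2642 genes with 4 of 4 pairs in 1 direction were not called, and the 5 largest changes among those at 10 CPM or more are described next. CENPA, the centromeric histone, stood at 11.4, 20.7, 8.21 and 21.7 CPM in high and 22.3, 21.6, 23.05 and 24.2 CPM in low dye, with small gaps in pairs 2 and 4 and large ones in pairs 1 and 3 (-0.62 ± 0.21, adjusted p = 0.051). AURKB, a mitotic kinase (-0.48 ± 0.18, adjusted p = 0.079), C21orf58 (-0.56 ± 0.19) and ARHGAP19 (-0.42 ± 0.15) also had their larger gaps in pairs 1 and 3. In HMGA2-AS1 (-0.42 ± 0.17) the gap was large in pair 2 alone.

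The inner gates gave the same measure in 8 other libraries with the same replicate numbers. Between midhigh and midlow dye 2254 of 13685 genes were called (16.5%), 1145 higher and 1109 lower. Of the 2165 genes higher in high dye that were also tested there, 2113 had the same sign and 957 were called higher (8.37% of all genes tested there), and of the 1822 lower genes 1763 had the same sign and 896 were called lower (8.10%). None was called in the opposite direction. Genes not called between the outer gates had the same sign in 69.5%. Called lncRNAs differed by direction, with 55 of 57 higher ones but only 47 of 60 lower ones of the same sign, a difference between directions that was not tested. Under 1 CPM only 47 of the 80 genes called higher and 16 of the 22 called lower were tested between the inner gates. The sign was the same for 44 of these higher and 10 of these lower ones, beside 58.8% of genes not called at that level. FAM13C, CLCA2, HSD17B14 and PLA2R1 were among those not tested there. PURPL changed by 0.92 ± 0.16 between the inner gates, NEAT1 by 0.81 ± 0.06 and PAPPA2 by 2.18 ± 0.14, while LINC00235 (-0.56 ± 0.29) and SYNE2 (-0.27 ± 0.18) were not called there. Mean CPM stood in the order low, midlow, midhigh, high for 1731 of the 2207 genes called higher (78.4%). It stood in the reverse order for 1443 of the 1828 called lower (78.9%), and in either order for 20.9% of genes not called. The high and low means also decided the calls, so the ends of these orders were largely set in advance. The shares are therefore no test of a graded change.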

How the data were processed

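Poly(A) RNA libraries of 8 dye-sorted samples of the outer gates and 8 of the inner gates were used. Per the submitters' processing notes the authors aligned reads with STAR and counted them with HTSeq on hg38 (GRCh38). Versions, annotation and strand setting are not given in the sources used here, and the kit named in the labels does not mark strand. The deposited values are raw counts per gene, and rows that name no gene (5.58% to 7.28% of no feature) stayed out. Gene names, classes and sequences came from reference tables matched by identifier.

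Counts were tested with edgeR 4.0.16 (R 4.3.3) by the quasi-likelihood test, with TMM factors, filterByExpr (minimum count 10, minimum total 15) and Benjamini-Hochberg adjustment over all genes, and the replicate number as a block. Same-numbered libraries of the outer gates deviated together (residual correlations 0.369 to 0.545 in 4 pairs, against -0.401 to 0.155 for 12 of different number). Only 3 residual degrees of freedom remained. CPM values are TMM-scaled, and pair ratios carry a prior count of 2. Library size puts 3 counts at 0.159 to 0.187 CPM. The fit was tested on simulated data.

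Named genes are those with an adjusted p under 0.05 and 4 of 4 pairs in 1 direction. They are the 10 largest changes each way among lncRNAs at 1 CPM or more and among coding genes at 1 to under 10 CPM, the 5 each way under 1 CPM, the 3 each way among pseudogenes and small RNAs, and the 5 smallest p each way at 10 CPM or more. Added to these are 5 called genes with 3 pairs, 5 genes not called with 4 pairs, members of lists and TERT. The members and lists were chosen with earlier results of these data known. Some genes of the DNA repair list, and 1 further list, were left out after their values were known and are not reported here. Motifs searched on both strands were E2F (TTCCCGC), the cell cycle homology region (TTTGAA), the CCAAT box, an E-box (TCACGTGA), the amino acid response element (TTGCATCA), AP-1 (TGANTCA), the antioxidant response element (TGACNNNGC), the TATA box (TATAAA) and the p53 decamer. Alternatives were no block, all 20 sort libraries with and without the block, RLE factors, DESeq2 1.42.0, other filters and each replicate left out.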

Additional observations from a re-analysis of the deposited data

Results flagged for a closer look

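In 9 of 150 groups of 4 libraries (75 named genes in 2 gates) 1 library stood far from the other 3, where chance gives about 1 in 20. SLC16A4-AS1 was highest in replicate 2 of both gates, at 1.68 CPM in high dye (others 0.413 to 0.576) and 3.27 CPM in low dye (others 1.09 to 1.44). AC093484.4 reached 1.79 CPM in high dye replicate 4 (others 0.596 to 0.707). RRAD reached 0.966 CPM in low dye replicate 3 (others 0 to 0.0627). UNC5B reached 2.51 CPM in low dye replicate 1 (others 0.124 to 0.461). ITPRIPL1 was lowest in low dye replicate 4 at 4.88 CPM (others 5.86 to 6.04). ICAM5 reached 1.87 CPM in high dye replicate 3 (others 0.921 to 1.00). FTH1P16 was lowest in low dye replicate 4 at 0.371 CPM (others 0.563 to 0.579). HMGA2-AS1 reached 33.7 CPM in low dye replicate 2 (others 12.9 to 15.04).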

How the results depend on the processing

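Without the replicate block the calls between the outer gates numbered 1497 in place of 4035, with 67 in place of 182 non-coding genes and 376 in place of 897 genes under 10 CPM, and between the inner gates edgeR called 0 in place of 2254 (1796 at an unadjusted p under 0.05). All 20 sort libraries gave 353 non-coding calls and 1420 under 10 CPM with the block, and 2589 calls over all genes without it. DESeq2 called 120 non-coding genes and 1380 genes between the inner gates, and no filter gave 298 non-coding calls. Leaving out each replicate gave 1796 to 3738 calls over all genes, 70 to 164 non-coding, 409 to 828 under 10 CPM and 1046 to 1875 between the inner gates. The cause was not tested. Of 70 named and called genes none reversed under these alternatives, while 26 lost their call without the block, 22 without replicate 1, 18 without replicate 3 and 10 with DESeq2. The count of 6545 genes with 1 direction in 4 of 4 pairs was 6264 at 1 CPM or more. Few counts limit each value under 1 CPM.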
